A study of Mus musculus with 10 samples.

Results

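The genes of the MHC class II pathway were followed in lung tumors of KP mice and of KPG1 mice, which also carry floxed alleles of the glucose transporter Glut1. The 8 genes were the rows of the deposited count table whose symbol was H2-Aa, H2-Ab1, H2-Eb1, H2-DMa, H2-DMb1, Cd74, Ciita or Ctss, out of 39017 genes. All 8 were protein-coding and passed the filter on low counts, with 15922 genes tested in all. The rule reads symbols, and takes the row with the highest total count where a symbol repeats. The symbols were chosen with earlier results of these data known.

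The 10 libraries were polyadenylated RNA from the CD45-negative fraction of lung tumors. Tumors were started in C57BL/6 mice by intratracheal Ad5CC10-Cre, an adenovirus that makes Cre recombinase under the promoter of CC10, a protein of club cells in the airways. The 5 controls came from K-rasLSL-G12D/WT; p53Fl/Fl mice (KP) and the 5 libraries labelled Glut1-KO from KPG1 mice, which carry Glut1Fl/Fl beside the same K-rasLSL-G12D/WT and p53Fl/Fl alleles, so both groups carried the inducible K-ras and floxed p53 alleles, and both were taken at 20 weeks and 1 day after initiation. The genotype label of the controls reads heterozygous fl/wt, whereas the design text speaks of Glut1-WT and the study's methods name controls of both kinds. The 5 controls were male, Glut1-KO replicates 1 to 3 were female, and Glut1-KO replicates 4 and 5 were male. No label says whether the libraries came from separate animals, and a second number of unstated meaning in the deposited names was shared by 3, 2 and 2 libraries, so the p-values below measure the spread between libraries. Totals ran from 35.3 to 49.8 M counts (M, mega).

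RNA counts of the targeted gene did not separate the groups. They cover the whole gene in a bulk fraction and do not measure the deletion itself. The study checked Glut1 deletion separately, by real-time PCR of CD45-negative tumor fractions and by staining. Slc2a1, which encodes Glut1, averaged 94.7 ± 16.9 CPM in controls and 66.5 ± 30.1 CPM in the Glut1-KO-labelled libraries (counts per mega of TMM-scaled library, SD, n = 5 each). The 3 female Glut1-KO libraries lay below every control and the 2 male ones inside the control range of 73.2 to 118 CPM, with a log2 fold change of -0.62 (SE 0.29, limma adjusted p = 0.658). Low Slc2a1 and female sex therefore fell on the same libraries and cannot be told apart here.

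MHC class II molecules carry peptides from the endosomal route to the surface for CD4+ T cells. An alpha and a beta chain, H2-Aa with H2-Ab1 or an E alpha chain with H2-Eb1, assemble on the invariant chain Cd74, which fills the groove. Proteases, with cathepsin S (Ctss) as the one known for the late steps in professional antigen-presenting cells, trim Cd74 to a short peptide that the H2-DM heterodimer then exchanges for antigen. The transactivator Ciita has no DNA binding of its own and docks on RFX and NF-Y factors bound at class II promoters. Dendritic cells, B cells and activated macrophages are the classical carriers, and alveolar type 2 (AT2) cells of the lung are also known to express class II.

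The labelled tissue was checked against its markers. Epithelial and AT2 markers were abundant: Epcam ran from 351 to 619 CPM over the 10 libraries, and the AT2 surfactant gene Sftpc from 6326 to 36577 CPM. The pan-leukocyte gene Ptprc, which encodes CD45 itself, was still present at 2.30 to 10.05 CPM. Markers of the classical class II carriers were present at low levels, unevenly within their lists. Of 10 dendritic cell markers 7 stayed under 1 CPM in every library, Flt3 among them at 0 to 0.487 CPM, whereas Itgax ran from 2.45 to 11.3 CPM. Of 10 B cell markers 7 did so, and Cd79a reached 1.26 CPM, whereas Cd79b ran from 3.69 to 23.4 CPM. Of 8 T cell markers 5 stayed under 1 CPM in every library, Cd3e among them at up to 0.226 CPM. Lck ran from 0.733 to 3.50 CPM, and Trac and Cd4 reached 1.06 and 1.01 CPM. Of 16 macrophage and monocyte markers 3 stayed under 1 CPM in every library, Csf1r ran from 3.82 to 12.5 CPM, and Mpeg1 and Ly6c2 reached 41.3 and 52.5 CPM. These are bulk libraries of a depleted fraction, so the cells that carried the class II RNA were not identified, and fewer cells of a type and less RNA per cell cannot be told apart.

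Of the 8 genes 5 lie together on chromosome 17 of GRCm38, in the order H2-DMa (ENSMUSG00000037649, 34119541 to 34139101, plus strand), H2-DMb1 (ENSMUSG00000079547, 34153072 to 34160230, plus), H2-Ab1 (ENSMUSG00000073421, 34257689 to 34269419, plus), H2-Aa (ENSMUSG00000036594, 34282744 to 34287823, minus) and H2-Eb1 (ENSMUSG00000060586, 34305867 to 34316674, plus). Ciita (ENSMUSG00000022504) lies on chromosome 16 from 10480059 to 10528418 and Ctss (ENSMUSG00000038642) on chromosome 3 from 95526786 to 95556403, both on the plus strand.

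The class II promoters are shown because the chain genes moved together across libraries, as described below. RefSeq promoter windows (GRCm38.p6, 250 bases before to 50 after the start) were given for 5 of the 8 members, namely H2-Aa, H2-Eb1, H2-DMa, H2-DMb1 and Ctss. They were searched on both strands for CTNGNAAC, the core letters of the X box that RFX binds, and for GATTGG, the reverse complement of CCAATC, which holds the CCAAT letters that NF-Y binds in the Y box. These letters do not overlap each other and were chosen with the sequences in view. In 3 members both were found on the coding strand, CTNGNAAC first. In each 60-base stretch below, written 5′ to 3′ on the strand of the gene, capitals mark the 2 matches. The stretch of H2-Aa is chr17:34287858-34287917 (minus), that of H2-Eb1 chr17:34305763-34305822 (plus) and that of H2-DMb1 chr17:34153084-34153143 (plus).
H2-Aa: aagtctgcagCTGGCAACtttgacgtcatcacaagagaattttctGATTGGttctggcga
H2-Eb1: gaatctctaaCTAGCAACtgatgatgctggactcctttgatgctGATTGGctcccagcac
H2-DMb1: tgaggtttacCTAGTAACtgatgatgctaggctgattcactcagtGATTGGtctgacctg

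The matches began 84 and 49 bases before the RefSeq start in H2-Aa, 94 and 60 bases in H2-Eb1, and 97 and 62 bases in H2-DMb1, so that their starts were 34 to 35 bases apart in all 3. The H2-DMb1 stretch lies just inside the GENCODE span of the gene, which begins upstream of the RefSeq start. CTNGNAAC occurred in 13.2% and GATTGG in 16.1% of the 32851 RefSeq promoters of the same length, and the pair in this order within 60 bases on 1 strand in 63 promoters (0.192%). H2-Ob and Rfx5 were the other genes of the lists used here that held the pair. The 2 windows of H2-DMa and the 1 of Ctss did not hold it, which says only that the pair is not in those windows.

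Levels between genes were compared per kb of exon (kb, 1000 bases). In controls Cd74 was by far the most abundant member at 944 ± 520 CPM per kb (SD, n = 5), at percentile 99.9 of the genes tested. The classical chains followed, H2-Eb1 at 88.8 ± 57.4, H2-Aa at 83.4 ± 54.8 and H2-Ab1 at 73.1 ± 51.2 CPM per kb, between percentiles 96.1 and 97.1. Then came H2-DMb1 at 28.7 ± 13.6, H2-DMa at 9.30 ± 5.27, Ctss at 5.73 ± 0.468 and Ciita at 3.35 ± 1.63 CPM per kb, the last at percentile 39.9. The SDs of the neighbours H2-Eb1, H2-Aa and H2-Ab1 overlapped, but within libraries H2-Aa exceeded H2-Ab1 in 10 of 10 and lay below H2-Eb1 in 9 of 10. H2-DMa and Ctss lay within the spread of H2-DMa. In the Glut1-KO-labelled libraries the order was the same down to H2-DMb1, with H2-DMa and Ctss both at 14.0 CPM per kb (SD 7.08 and 4.92, n = 5).

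Against the controls, the chain, chaperone and transactivator genes had higher mean levels in the Glut1-KO-labelled libraries, but within the spread between libraries, and only Ctss stood apart. By limma with Benjamini-Hochberg adjustment over all genes, 0 of the 8 members passed 0.05. The test called 0 of 15922 genes (0.0%), with 1223 genes (7.68%) at an unadjusted p under 0.05, and 3.66% of all genes both under it and higher in the Glut1-KO-labelled libraries. Among the members that was 1, Ctss. edgeR's quasi-likelihood test also called 0 of 15922 genes (0.0%) and 0 members, with 1409 genes (8.85%) at an unadjusted p under 0.05. DESeq2 called 247 of 17676 genes (1.4%) and had 2062 of 25369 genes (8.13%) at an unadjusted p under 0.05. It called 1 member, Ctss. All 8 log2 fold changes were above 0, against 49.3% of all genes tested, with a median of 0.64 against -0.00. The 7 members other than Ctss moved together from library to library, so their shared sign is not 7 independent results, and in the male libraries all 7 lay below 0.

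**Figure D1:**
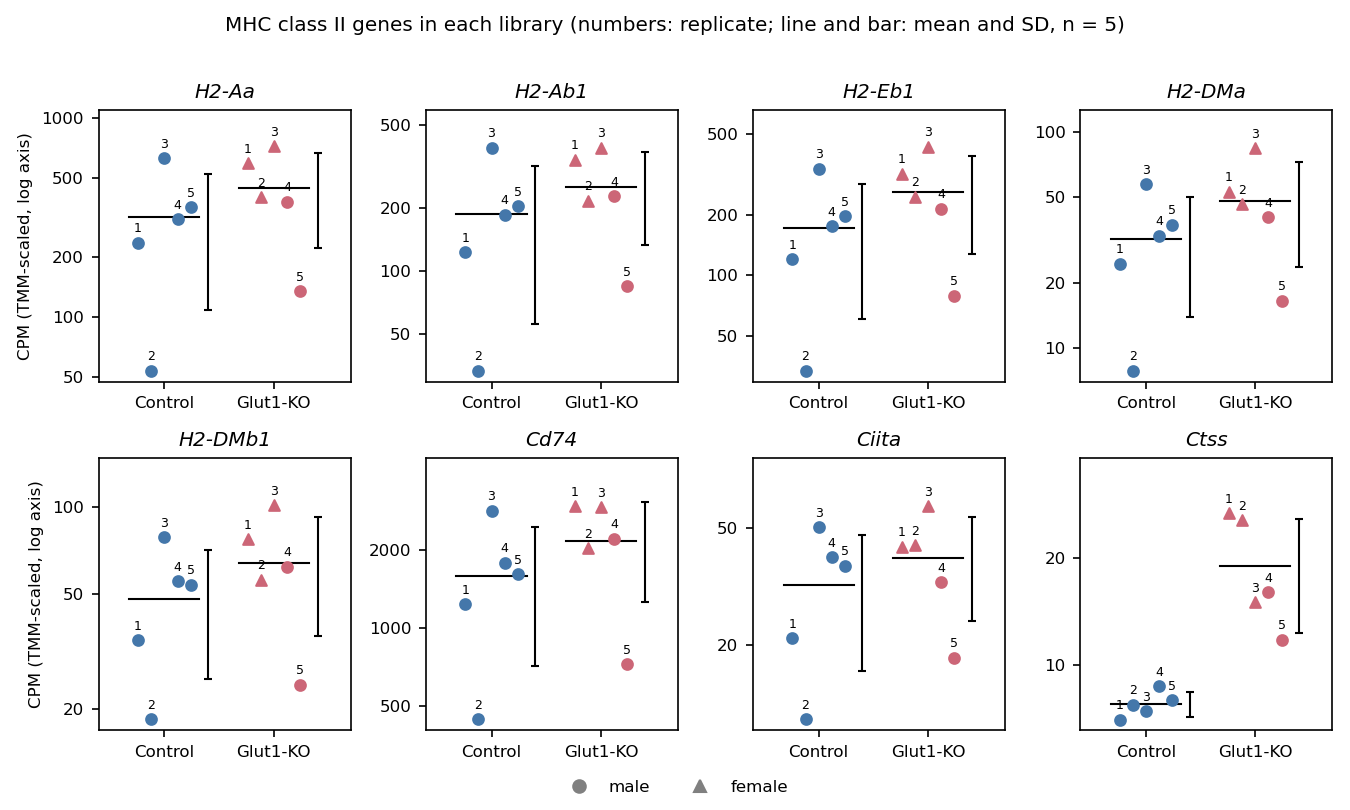
Level of each of the 8 genes in every library, in TMM-scaled CPM on a log axis, for 5 controls (blue) and 5 libraries labelled Glut1-KO (red). Circles are male and triangles female, digits are replicate numbers, and lines and bars are the mean and SD (n = 5). In the first 7 panels control replicate 2 is lowest and the groups overlap, and in the Ctss panel every Glut1-KO library lies above the control range of 7.03 to 8.72 CPM.

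The classical chains were examined first. H2-Aa measured 237, 53.8, 627, 309 and 356 CPM in control replicates 1 to 5, and 591, 399, 721, 380 and 135 CPM in Glut1-KO replicates 1 to 5. Control replicate 2 was lowest and Glut1-KO replicate 3 highest, a span of 13.4-fold, and the groups overlapped over most of it. The means were 317 ± 208 and 445 ± 223 CPM (SD, n = 5 each), and the log2 fold change was 0.65 (SE 0.62, 95% interval -0.72 to 2.02, limma adjusted p = 0.826, 2-sided exact permutation p = 0.397).

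H2-Ab1, the beta chain that pairs with H2-Aa, measured 123, 33.6, 390, 187 and 205 CPM in the controls and 342, 217, 390, 229 and 85.1 CPM in the Glut1-KO-labelled libraries. The same 2 libraries, control replicate 2 and Glut1-KO replicate 5, were the lowest, and no Glut1-KO library exceeded the highest control. Its log2 fold change was 0.63 (SE 0.61, 95% interval -0.70 to 1.96, limma adjusted p = 0.826, exact permutation p = 0.413).

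H2-Eb1, the beta chain of the E molecule, measured 121, 33.7, 338, 175 and 197 CPM in the controls and 319, 245, 435, 214 and 79.3 CPM in the Glut1-KO-labelled libraries. Its libraries ranked at both ends as those of H2-Aa did, and 1 Glut1-KO library lay above every control. The log2 fold change was 0.72 (SE 0.60, 95% interval -0.60 to 2.04, limma adjusted p = 0.792, exact permutation p = 0.341). The partner alpha chain gave no counts. H2-Ea-ps, the E alpha pseudogene of this strain background, had 0 counts in all 10 libraries, which allows up to 0.0557 to 0.0920 CPM per library (3 counts, counting error only).

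The peptide-exchange chains showed the same pattern at lower levels. H2-DMa measured 24.6, 7.85, 57.5, 33.2 and 37.2 CPM in the controls and 53.1, 46.5, 84.2, 40.5 and 16.5 CPM in the Glut1-KO-labelled libraries. Glut1-KO replicate 3 alone exceeded every control. The log2 fold change was 0.71 (SE 0.54, 95% interval -0.48 to 1.91, limma adjusted p = 0.776, exact permutation p = 0.333). H2-DMa shares 360 exonic bases with Brd2 on the opposite strand, 7.09% of its 85-base stretches, and Brd2 reached 28336 counts in a library. The use of strand in the counting was not given in the sources used here.

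H2-DMb1 measured 34.8, 18.5, 78.7, 55.5 and 54.0 CPM in the controls and 77.5, 56.2, 101, 62.2 and 24.4 CPM in the Glut1-KO-labelled libraries. Its span of 5.49-fold was narrower than that of H2-DMa at 10.7-fold, and the groups overlapped. The log2 fold change was 0.44 (SE 0.44, 95% interval -0.52 to 1.41, limma adjusted p = 0.830, exact permutation p = 0.389). Of its 85-base stretches 14.1% also occur in the neighbouring copy H2-DMb2, so its level is uncertain to that extent.

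Cd74, the invariant chain (ENSMUSG00000024610, chromosome 18, 60803848 to 60812652, plus strand), measured 1237, 443, 2842, 1787 and 1616 CPM in the controls and 2957, 2037, 2936, 2218 and 722 CPM in the Glut1-KO-labelled libraries. Glut1-KO replicates 1 and 3 lay above every control, and replicate 5 lay below all controls but replicate 2. The means were 1585 ± 873 and 2174 ± 911 CPM (SD, n = 5 each). The log2 fold change was 0.52 (SE 0.50, 95% interval -0.59 to 1.62, limma adjusted p = 0.827, exact permutation p = 0.405).

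Ciita, the transactivator, measured 21.2, 11.2, 50.3, 39.8 and 37.2 CPM in the controls and 43.2, 43.7, 59.5, 32.7 and 18.1 CPM in the Glut1-KO-labelled libraries. The order at the low end was that of the chains, control replicate 2, Glut1-KO replicate 5 and control replicate 1. Its log2 fold change was the smallest of the 8 at 0.41 (SE 0.43, 95% interval -0.53 to 1.36, limma adjusted p = 0.840, exact permutation p = 0.460).

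These 7 genes were more variable within a group than most genes. Their coefficients of variation over the controls ran from 47.2% (H2-DMb1) to 70.0% (H2-Ab1), against a median of 22.0% over all genes tested, and their spans from 5.30-fold (Ciita) to 13.4-fold (H2-Aa) against a median of 2.19-fold. Ctss was the opposite in the controls, with a coefficient of variation of 8.17%.

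Across the 10 libraries the 7 genes moved together, and the 3 classical chains kept nearly fixed proportions. As a description, Pearson's r of log2 CPM ranged from 0.974 to 0.997 over the 10 pairs of the 5 chains and from 0.956 to 0.997 over the 21 pairs that add Cd74 and Ciita, and removing each group's mean lowered the smallest r only to 0.953. The pairs share libraries, depth and scaling. Per kb, H2-Aa over H2-Ab1 stayed between 1.07 and 1.30 and H2-Aa over H2-Eb1 between 0.819 and 1.00 while each of these genes spanned 11.6- to 13.4-fold. Cd74 over H2-Aa ran from 9.22 to 18.6 and was highest in control replicate 2, where both were lowest. H2-Aa over Ciita ran from 12.0 to 34.4 and was lowest in that library. On the log2 scale H2-Aa changed by 1.46, H2-Eb1 by 1.44, H2-Ab1 by 1.42, H2-DMa by 1.28, Cd74 by 1.16 and H2-DMb1 by 1.01 per unit of Ciita, so the classical chains spanned a wider range than their transactivator.

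**Figure D2:**
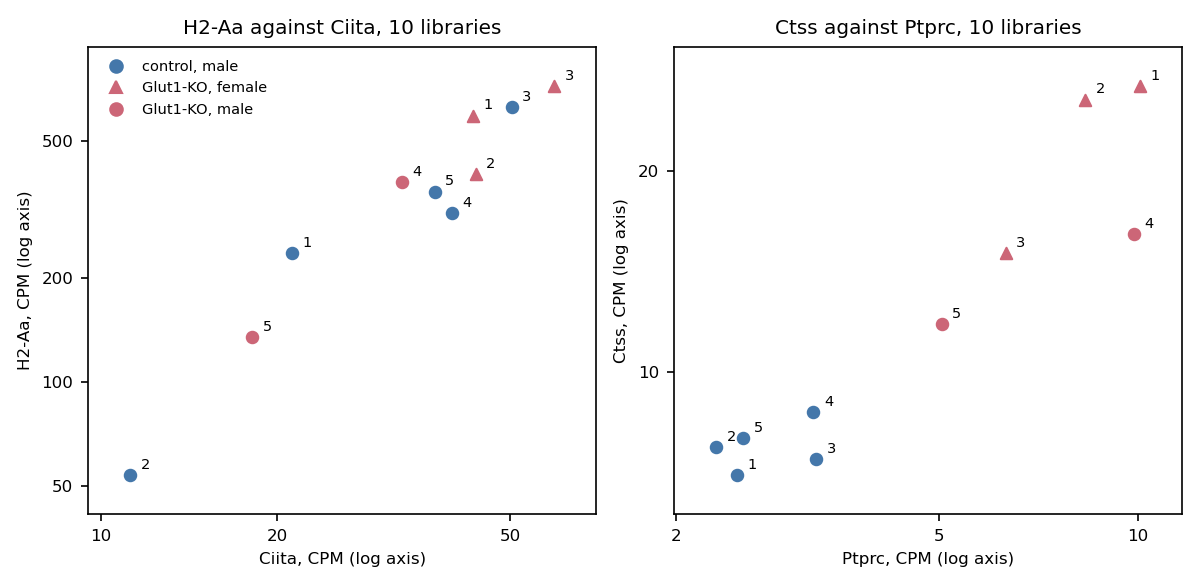
H2-Aa against Ciita (left) and Ctss against Ptprc (right) in 10 libraries, TMM-scaled CPM on log axes, with replicate numbers. On the left, controls and Glut1-KO libraries lie along a common line from control replicate 2 (11.2 and 53.8 CPM) to Glut1-KO replicate 3 (59.5 and 721 CPM). On the right, the 5 controls sit together below 3.26 CPM of Ptprc and 8.72 CPM of Ctss, apart from the 5 Glut1-KO libraries.

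Ctss followed another pattern. It measured 7.03, 7.74, 7.43, 8.72 and 7.97 CPM in the controls and 26.7, 25.5, 15.1, 16.1 and 11.8 CPM in the Glut1-KO-labelled libraries, with at least 278 counts in each. All 5 Glut1-KO libraries, of both sexes, lay above every control, and the female replicates 1 and 2 were highest. Groups failed to overlap in this direction for 128 of 15922 genes (0.804%) and in either direction for 1.85%, and among the 8 members for Ctss only. The means were 7.78 ± 0.635 and 19.0 ± 6.68 CPM (SD, n = 5 each), a ratio of 2.45, with a log2 fold change of 1.22 (SE 0.26, 95% interval 0.65 to 1.79). The exact permutation p of 0.00794 is the smallest that 252 assignments can give. The call over all genes depended on the tool, with an unadjusted p of 0.000617 and an adjusted p of 0.314 by limma, an adjusted p of 0.187 by edgeR's quasi-likelihood test and of 0.000164 by DESeq2.

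Leukocyte genes were compared beside Ctss. Ptprc measured 2.48, 2.30, 3.26, 3.23 and 2.53 CPM in the controls and 10.05, 8.32, 6.31, 9.84 and 5.05 CPM in the Glut1-KO-labelled libraries, with no overlap (log2 fold change 1.47, SE 0.25, limma adjusted p = 0.230). Of the 12 pan-leukocyte markers 11 were tested. All 11 had a log2 fold change above 0, with a median of 0.59, and 0 passed by limma. At an unadjusted limma p under 0.05 were 5, against 3.66% of all genes in this direction, 4 did not overlap, against 0.804%, and DESeq2 called 4, against 0.673%. Their summed level was 322 to 476 CPM in controls and 332 to 617 CPM in the Glut1-KO-labelled libraries, most of it Lcp1, which epithelial tumor cells can also express.

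Of the macrophage and monocyte markers 13 of 14 tested lay above 0, with a median of 0.88, and 0 passed by limma. Against the same shares of all genes, 9 were at an unadjusted limma p under 0.05, 3 did not overlap, and DESeq2 called 3. Their summed level was 65.0 to 103 CPM in controls and 108 to 157 CPM in the Glut1-KO-labelled libraries. Csf1r, the receptor that macrophages depend on, averaged 4.55 ± 0.832 and 8.73 ± 3.29 CPM (SD, n = 5 each), and 4 of 5 Glut1-KO libraries exceeded every control. Fcer1g, a signaling subunit of Fc receptors, had the smallest p of the list, at 0.598 ± 0.123 and 1.88 ± 0.642 CPM without overlap (log2 fold change 1.61, SE 0.31, limma adjusted p = 0.259). Among markers of alveolar and other tissue macrophages, Marco stayed at 0 to 0.521 CPM with 4 of 5 Glut1-KO libraries above every control, and Siglecf (listed as Siglec5) had 0 counts in at least 1 library. Chil3 (listed as Chi3l3) reached 8.17 CPM (log2 fold change 1.96, SE 0.59, limma adjusted p = 0.449), and Mrc1 reached 28.4 CPM, in a control (-0.26, SE 0.51, adjusted p = 0.919). The part of these cells in the Ctss difference was not tested.

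The remaining leukocyte lists had few tested genes and did not share a direction. Above 0 were 2 of 3 dendritic cell markers (median 0.43) and 3 of 5 neutrophil markers (0.25). Only 1 of 3 B cell markers (-0.21) and 1 of 3 T cell markers (-0.75) lay above 0, and 0 of these passed by limma. Lists of cells other than leukocytes leaned between the same groups as well. All 8 endothelial markers were above 0 with a median of 0.67, all 6 ciliated cell markers below 0 with a median of -0.95, and club cell markers had a median of -0.56 (2 of 6 above 0). By limma 0 of these 3 lists' markers passed. At an unadjusted limma p under 0.05 was 1 of the 8 endothelial markers, against 3.66% of all genes in this direction. DESeq2 called 1 of the 6 ciliated cell markers, against 1.4% of all genes in either direction.

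The genes most like Ctss over the 10 libraries, a list chosen after its values were seen, included the leukocyte genes Nckap1l (r = 0.980), Coro1a (0.977), C1qa (0.966) and C1qb (0.964). Ptprc had an r of 0.938 with Ctss and Sftpc one of 0.285. With the 7 other members Ctss had an r of only 0.406 to 0.453. Part of each value for Ctss is the group difference itself, since the groups did not overlap.

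The chains had a higher correlation with AT2 genes than with leukocyte genes. Likeness was taken as Pearson's r over the 10 libraries with the mean standardized log2 CPM of the 5 chain members, and is a description. The score of 10 AT2 markers had an r of 0.948 (Spearman's rho 0.867), which was 0.749 without Glut1-KO replicate 5 and control replicate 2, the libraries farthest from the median of the chain score. The pan-leukocyte score had an r of 0.662 (rho 0.733, 0.50 without them) and the macrophage score 0.568 (rho 0.564, 0.605 without them). The AT1 (alveolar type 1 cell) score had 0.589 (0.209 without them), the dendritic cell score 0.553 (0.272), the endothelial score 0.553 (0.315), the B cell score 0.418 (0.419) and the score of general epithelial markers -0.34 (-0.39). The ciliated cell score had 0.562, which was -0.10 without these libraries. With each group's mean removed, r was 0.949 for AT2, 0.823 for ciliated, 0.668 for pan-leukocyte and 0.599 for macrophage markers. The difference between these correlations was not tested.

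**Figure D3:**
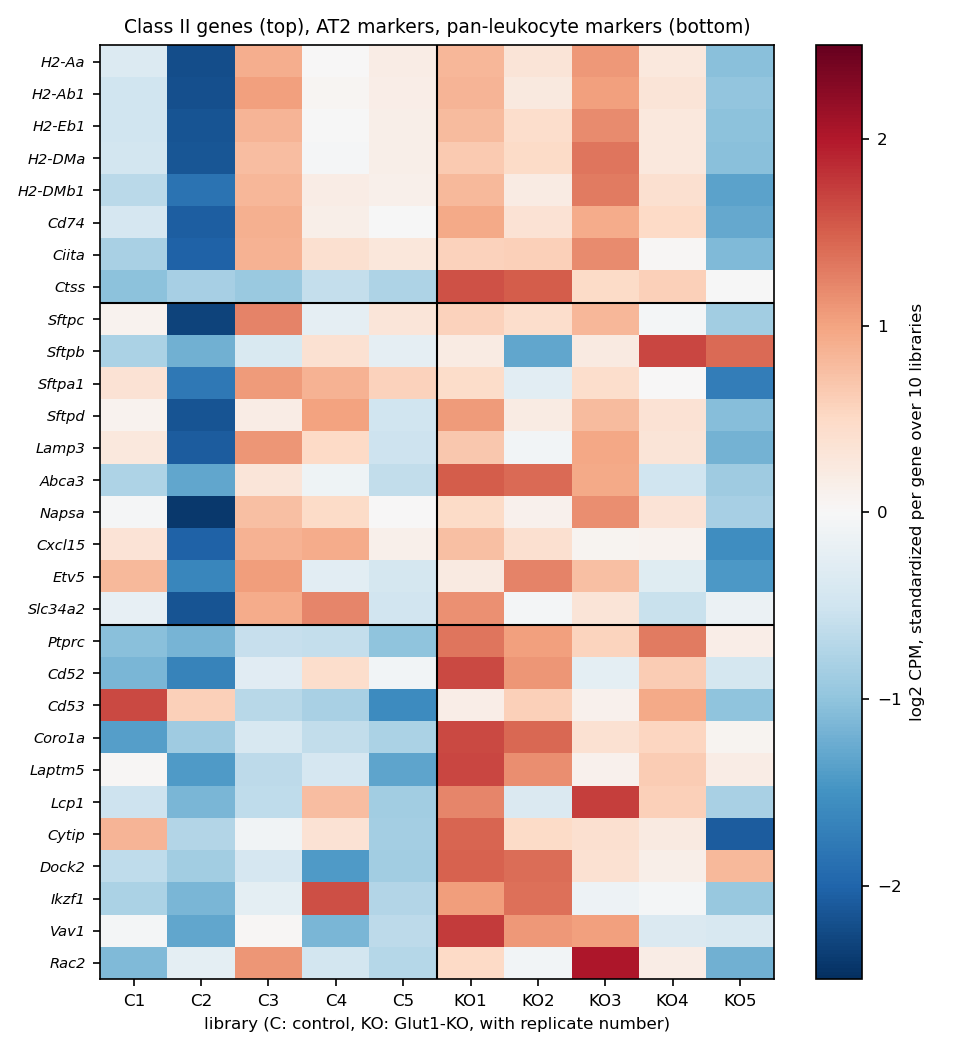
log2 CPM of the 8 class II pathway genes (top), the 10 AT2 markers (middle) and the 11 tested pan-leukocyte markers (bottom), standardized per gene over 10 libraries, with controls left of the line. Control replicate 2 (C2) is low for 7 class II genes and for most AT2 markers such as Sftpc (6326 CPM), whereas Ctss and Ptprc split at the line between the groups.

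Of the AT2 markers compared singly, Sftpc, Napsa and Lamp3 showed the same and Sftpb did not. The remaining AT2 markers were not compared singly. Sftpc, the surfactant protein C gene, measured 20565, 6326, 36577, 17639 and 22866 CPM in the controls and 26153, 24550, 29630, 19347 and 12849 CPM in the Glut1-KO-labelled libraries, lowest in the libraries where the chains were lowest and highest where they were high. Its r with the chains was 0.947 (0.764 without those 2 libraries). The aspartic protease Napsa had 0.958 (0.842 without them) and the lysosomal protein Lamp3 0.915 (0.617). Surfactant protein B (Sftpb) had only 0.170 (0.185), and Epcam had -0.42 (-0.07). None of the 10 AT2 markers passed between the groups (0 of 10 by limma, edgeR's quasi-likelihood test and DESeq2, and 0 at an unadjusted p under 0.05). Their summed level was 28265 to 79520 CPM in controls and 51720 to 72009 CPM in the Glut1-KO-labelled libraries. Their part in the class II levels was not tested.

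Of 15914 other genes tested, 83 reached an r of 0.9 with the chain score, around a median of -0.01. The 10 closest were Tenc1 (0.989), Srcin1 (0.983), Lgi3 (0.979), Gm11611 (0.977), Pcca (0.967), Copz2 (0.964), Cd164l2 (0.961), Csrp1 (0.960), Emc9 (0.959) and Vrk3 (0.958). Tenc1 encodes a tensin of focal adhesions, Srcin1 an inhibitor of Src signaling, Lgi3 a secreted leucine-rich protein, Pcca a subunit of propionyl-CoA carboxylase and Csrp1 a LIM-domain protein. Without Glut1-KO replicate 5 and control replicate 2 their r ran from 0.808 to 0.961. Their log2 fold changes between the groups ran from 0.06 to 0.65 with limma adjusted p from 0.785 to 0.919, so none passed.

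The differences of the 7 genes depended on which libraries were compared. The 3 female Glut1-KO libraries, those with low Slc2a1, averaged 570 ± 162 CPM of H2-Aa (SD, n = 3), whereas the 2 male ones measured 380 and 135 CPM. Against the 5 male controls, the female libraries gave log2 fold changes of 0.81 (Ciita) to 1.25 (H2-Eb1) for the 7 genes (limma adjusted p from 0.371 to 0.490). That fit called 9 of 16430 genes (0.0548%), none of them a member. The 2 male Glut1-KO libraries gave -0.21 (Ciita) to -0.05 (H2-Ab1), with adjusted p from 0.933 to 0.988. Both carry the same second number in their deposited names, and the 5 controls carry 2 such numbers, whose meaning no label gives. Ctss kept its sign in both, with 1.48 (SE 0.23, adjusted p = 0.0853) in the female and 0.80 (SE 0.20, adjusted p = 0.378) in the male libraries. The difference between the sexes exists only within the Glut1-KO-labelled libraries and was not tested.

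Control replicate 2 also weighed on the 7 genes. Without it their log2 fold changes were between 0.05 and 0.23 (limma adjusted p from 0.897 to 0.978), and the median over all 8 members was 0.13 in place of 0.64. The median was 0.99 without control replicate 3, 1.01 without Glut1-KO replicate 5 and 0.43 without Glut1-KO replicate 3. Ctss was 1.22 without control replicate 2.

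**Figure D4:**
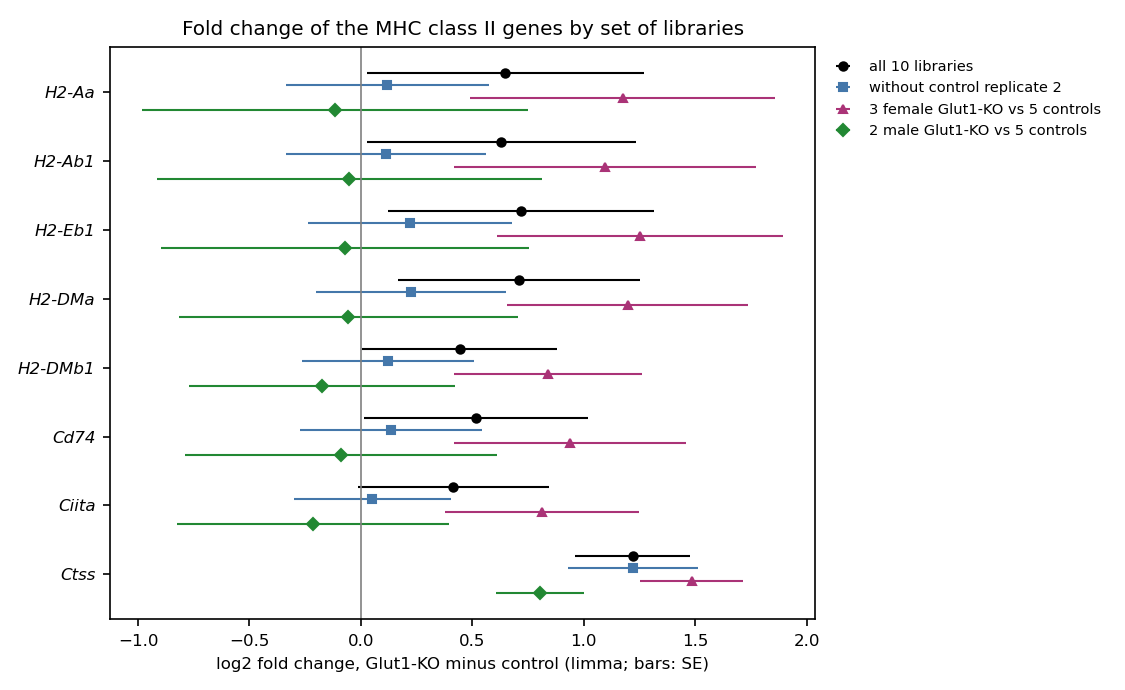
log2 fold change of each of the 8 genes, Glut1-KO minus control, by limma with SE bars, for 4 sets of libraries: all 10, all but control replicate 2, the 3 female Glut1-KO libraries against 5 controls, and the 2 male ones against 5 controls. For 7 genes the values run from below 0 (male) to 0.81 or more (female), and Ctss stays between 0.80 and 1.48.

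The other class II chains were scarce. The list held 6 symbols, of which H2-Ea had no row of its own. Of the other 5, H2-Ea-ps, H2-Eb2, H2-DMb2, H2-Oa and H2-Ob, 4 were tested. H2-DMb2, the second DM beta gene, averaged 1.73 ± 1.09 CPM in controls and 2.76 ± 1.02 CPM in the Glut1-KO-labelled libraries (SD, n = 5 each). The log2 fold change was 0.98 (SE 0.58, limma adjusted p = 0.728). H2-Eb2, a second E beta gene, had 1.11 (SE 0.84, adjusted p = 0.774). All 4 were above 0, with a median of 0.97, and 0 of 4 passed by limma, edgeR's quasi-likelihood test or DESeq2, nor at an unadjusted p under 0.05.

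Between the chain genes on chromosome 17 lie genes of the class I pathway, which load cytosolic peptides. The immunoproteasome subunits Psmb9 and Psmb8 had an r of 0.918 and 0.945 with the chain score, and the peptide transporters Tap1 and Tap2 0.956 and 0.942. Their log2 fold changes ran from 0.67 (Tap1) to 0.99 (Psmb9), and none passed (lowest limma adjusted p 0.730). Brd2, a bromodomain protein gene that borders H2-DMa, had an r of -0.08 and spanned only 1.65-fold.

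Genes that process antigen in endosomes came next. Of 12 such genes 11 were tested, 9 with a log2 fold change above 0 and 2 below, with a median of 0.21. By limma, edgeR's quasi-likelihood test or DESeq2 0 passed, with 1 at an unadjusted limma p under 0.05, against 7.68% of all genes. Cathepsin L (Ctsl), which trims Cd74 in thymic epithelium, averaged 306 ± 44.3 CPM in controls and 231 ± 68.1 CPM in the Glut1-KO-labelled libraries, with a log2 fold change of -0.44 (SE 0.19, unadjusted p = 0.0425, limma adjusted p = 0.644), and 4 of 5 Glut1-KO libraries lay below every control. It was thus on the other side of 0 from Ctss. Ifi30, the thiol reductase that unfolds antigens, had 0.36 (SE 0.20, adjusted p = 0.710).

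Of the 3 genes of surface turnover, March1, the ubiquitin ligase that removes class II from the surface of antigen-presenting cells, averaged 0.252 ± 0.0582 CPM in controls and 0.550 ± 0.200 CPM in the Glut1-KO-labelled libraries, from 9 to 34 counts a library. Its groups did not overlap (0.804% of all genes in this direction), but the nearest libraries, control replicate 5 at 0.313 CPM and Glut1-KO replicate 3 at 0.314 CPM, had 13 and 14 counts. The log2 fold change was 1.05 (SE 0.35, unadjusted p = 0.0124, limma adjusted p = 0.513). The related ligase March8 was abundant at 137 ± 8.46 and 152 ± 24.2 CPM, with 0.15 (SE 0.12, adjusted p = 0.791). Of the 3 genes 0 passed by limma, edgeR's quasi-likelihood test or DESeq2. At an unadjusted limma p under 0.05 was 1, against 7.68% of all genes.

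The factors that bind class II promoters did not lean one way. All 10 were tested, 5 above and 5 below 0, with a median of -0.01, and 0 passed by limma, edgeR's quasi-likelihood test or DESeq2. At an unadjusted limma p under 0.05 was 1, against 7.68% of all genes. Rfx5, the RFX subunit, averaged 30.8 ± 3.75 and 31.1 ± 2.92 CPM. Its r with the chains was 0.238, and -0.10 without Glut1-KO replicate 5 and control replicate 2. Nfyc, the NF-Y gamma subunit, averaged 42.7 ± 1.82 CPM in controls and 34.2 ± 6.32 CPM in the Glut1-KO-labelled libraries, all 5 of which lay below every control (log2 fold change -0.35, SE 0.14, unadjusted p = 0.0280, limma adjusted p = 0.608). Non-overlap in this direction occurred in 1.05% of all genes tested. Creb1, which binds between the X and Y boxes, had 0.11 (SE 0.09, adjusted p = 0.776).

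On the interferon gamma route to Ciita 12 of 13 genes were tested, 6 above and 6 below 0, with a median of 0.02. By limma, edgeR's quasi-likelihood test and DESeq2 0 passed. At an unadjusted limma p under 0.05 was 1, against 7.68% of all genes. Ifng itself failed the filter at 0 to 0.0987 CPM. Spi1, the myeloid factor PU.1 that acts on the promoter of Ciita in myeloid cells, averaged 0.403 ± 0.0794 CPM in controls and 0.877 ± 0.318 CPM in the Glut1-KO-labelled libraries without overlap (log2 fold change 1.05, SE 0.32, unadjusted p = 0.00693, limma adjusted p = 0.449). Such non-overlap, higher in the Glut1-KO-labelled libraries, occurred in 0.804% of all genes tested. Spi1 belonged to the genes most like Ctss (r = 0.956). The kinase Jak1 had -0.38 (SE 0.20, adjusted p = 0.699). Irf1, which carries the interferon signal, had an r of 0.584 with the chains, which was 0.743 with each group's mean removed and -0.25 without Glut1-KO replicate 5 and control replicate 2.

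Of the 6 costimulation genes 5 were tested, 3 above and 2 below 0, with a median of 0.11. By limma, edgeR's quasi-likelihood test and DESeq2 0 passed. At an unadjusted limma p under 0.05 was 1, against 7.68% of all genes. Cd86, the ligand of CD28 on antigen-presenting cells, averaged 0.553 ± 0.137 and 1.07 ± 0.355 CPM (log2 fold change 0.91, SE 0.32, unadjusted p = 0.0157, limma adjusted p = 0.534), and 4 of 5 Glut1-KO libraries exceeded every control. Cd274, the checkpoint ligand PD-L1, had -0.46 (SE 0.30, adjusted p = 0.756).

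Genes that dissociation of tissue induces were compared too. All 10 had a log2 fold change below 0, with a median of -0.38, and 0 passed by limma. At an unadjusted limma p under 0.05 were 5, against 4.02% of all genes in this direction, 3 did not overlap, against 1.05%, and DESeq2 called 2, against 0.724%. Atf3, a stress-induced factor, averaged 310 ± 73.6 CPM in controls and 160 ± 20.7 CPM in the Glut1-KO-labelled libraries (log2 fold change -0.94, SE 0.17, limma adjusted p = 0.230), and Jun had -0.74 (SE 0.19, adjusted p = 0.363). Their score had an r of 0.221 with the chains (-0.09 without the same 2 libraries), but 0.842 once each group's mean was removed, and its part in the class II levels was not tested.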

How the data were processed

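Values were raw counts as deposited by the authors, not normalized, for each Ensembl gene of a library. A combined table repeats them with symbols (10 of 10 columns equal), and a deposited log2 table was not used. Per the labels and the submitters' processing notes, the authors made stranded mRNA libraries and used bcl2fastq 2.17, cutadapt 1.4.2, HISAT2 (mm10) and featureCounts 1.4.4. The study's methods give single-end reads of 85 bases and name another Cutadapt version. The counting's strand setting and annotation were not given in the sources used here.

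Counts were filtered with edgeR 4.0.16 filterByExpr by group (minimum count 10, minimum total 15), TMM-scaled and given voom weights with a prior count of 0.5. limma 3.58.1 in R 4.3.3 was run with group as the only term, with Benjamini-Hochberg adjustment over all genes (threshold 0.05). Single members were also tested by 2-sided exact permutation of log2 CPM over 252 assignments. The script was tested on simulated data. Exon lengths came from GENCODE M21 (96.6% of genes matched). Alternatives were edgeR's quasi-likelihood test, DESeq2 1.42.0, RLE factors, library totals, no filter, at least 100 counts in 5 libraries, sex terms, libraries summed by name number, a replicate block and leaving out each library.

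The members, lists and markers were chosen with earlier results of these data known. Named were all members, in each pathway list (not the marker lists) the 2 genes with the smallest p and those at 0 in every library, the 10 genes most like the chains, and the defining markers Ptprc, Cd79a, Flt3, Csf1r, Cd3e, Sftpc and Epcam. Other genes named with values were chosen after their values were seen. Intervals are limma's 95% intervals, which cover the spread between libraries, and the floor of 3 counts covers counting error only.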

Additional observations from a re-analysis of the deposited data

How the results depend on the processing

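Between the groups, 7 of the 8 genes turned below 0 in 2 of 21 alternatives. In the male libraries only, and with sex as a covariate, the log2 fold changes were -0.11 and -0.11 for H2-Aa, -0.053 and -0.052 for H2-Ab1, -0.073 and -0.072 for H2-Eb1, -0.056 and -0.055 for H2-DMa, -0.18 and -0.17 for H2-DMb1, -0.091 and -0.091 for Cd74, and -0.21 and -0.21 for Ciita. No control was female, so both fits rest on the same contrast, the 2 male Glut1-KO libraries against the 5 male controls. They are therefore not separate checks. The cause was not tested, and sex and low Slc2a1 cannot be told apart. Ctss ran from 0.80 to 1.48 over the 21 alternatives, and DESeq2 called it (1.30, adjusted p = 0.000164), which makes 1 of 8 members against 0 in limma. Over all genes, in place of 0, DESeq2 called 247, the female Glut1-KO libraries 9, the male libraries 1, sex as a covariate 3, summed name numbers 2, and leaving out 1 library 0 to 1 (1 without control replicate 3). With the replicate number as a block limma called 0 members and 0 genes in all, with Ctss at 1.28 (adjusted p = 0.328). Same-numbered libraries did not deviate together (r from -0.13 to 0.20, and 1 of 5 controls correlated best with its own number). The values thus gave no sign that the numbers pair the samples, but low correlations cannot exclude a pairing. With 5 libraries a group, the 7 genes other than Ctss varied by 47.2% to 70.0% among controls, and each of their 95% intervals includes 0.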
